A study of Mus musculus with 72 samples.

Results

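Ptchd1 (patched domain containing 1, ENSMUSG00000041552) was 1 of 50600 genes in a count table of mouse melanoma cell lines treated with gastrin-releasing peptide (GRP). It was selected on its measured counts, which were higher after GRP in 3 of the 4 lines that express the GRP receptor (GRPR). The GRP and mock libraries of those lines therefore served the choice and are given below as a description without a test. The comparison of GRP with its antagonist against the antagonist alone uses none of those libraries and was tested. The gene was chosen with earlier results of these data known, so the p-values below may not be independent of the choice.

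GRPR is a G protein-coupled receptor that signals through Gαq/11 when it binds GRP, and RC-3095 (RC) is a synthetic antagonist of it. Ptchd1 encodes a multi-pass membrane protein with a sterol-sensing domain, related to the Hedgehog receptor Patched. The gene is known for its expression in the developing brain, where mouse mutants have altered thalamic reticular neurons, and human PTCHD1 is linked to X-linked intellectual disability and autism. The end of the protein binds the scaffold protein PSD95 (Dlg4) and the sorting nexin SNX27, which works with the retromer complex.

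The table held 72 libraries, 3 for each of 4 treatments in 6 lines. After 18 h of starvation in 0.5% serum, cells received for 4 h 0.1% DMSO (mock), 10 nM GRP, 1 µM RC, or GRP and RC together (GRP+RC). By their labels, 1057 and 1064 are female lines with endogenous Grpr, carrying Tyr::NRASQ61K/°, Cdkn2a-/-, Tyr::CreA/° and Cdh1dF/dF. The male line 1181 is labelled Tyr::NRASQ61K/° with Cdkn2a-/-, no Cre (°/°) and Cdh1dF/dF, and for the female line 1014 only Tyr::NRASQ61K/° is given. 1181-Grpr and 1014-Grpr carry CMV::Grpr/tGFP and 1181-Ctrl and 1014-Ctrl carry CMV::tGFP, so that in the transduced lines Grpr comes from a viral promoter. The label Cdh1dF/dF is the same in 1181, 1057 and 1064, but the counts of Cdh1, the E-cadherin gene, differed. The mock libraries held 1604 Cdh1 counts in 1181-Ctrl and 1477 in 1181-Grpr, against 1 in 1057 and 2 in 1064. The study describes 1181 as positive for E-cadherin, so this label does not show loss of Cdh1 in 1181. All 6 lines share the tyrosinase-driven NRAS oncogene, and each was derived from melanoma of transgenic mice, so a line stands for its own cells. The study's methods describe its cell culture experiments as biological replicates, and no label ties these libraries to separate cultures, so the p-values measure the spread between the libraries given.

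Library totals ran from 19512882 to 46862053 reads counted to genes (median 28112904.5), and 3 counts, taken as the floor, equal at most 0.154 counts-per-million (CPM) of the raw total. All other CPM are scaled by the trimmed mean of M values (TMM) over the 72 libraries. The 7 melanocyte markers (Mitf, Sox10, Dct, Tyr, Tyrp1, Pmel and Mlana) had a median above 1 CPM in every line. Grpr itself, also on chromosome X, ran from 188 to 276 CPM in 1057, from 469 to 1273 CPM in 1064 and from 109 to 632 CPM in 1014-Grpr. In 1181-Grpr it was lower, at 8.46 to 80.7 CPM apart from 1 library without counts, and in 1181-Ctrl it stayed at or below 0.0914 CPM. The ligand gene Grp did not exceed 0.0917 CPM in any library.

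A pair of libraries went against their labels. The library labelled 1014-Ctrl mock replicate 2 held 1165 Grpr counts and 1557 counts of the Y-linked gene Ddx3y, while the other 11 libraries of that line held no Ddx3y and at most 0.0334 CPM of Grpr. The library labelled 1181-Grpr GRP+RC replicate 2 held 0 counts of both, while the other 11 of its line had at least 36.9 CPM of Ddx3y. The other 11 libraries of 1181-Grpr, a line labelled male, also held 192 to 251 CPM of Xist, the RNA of the inactive X chromosome, against 0.0282 to 0.64 CPM in 1181-Ctrl. Both mismatched libraries had 0 Ptchd1 counts, and results that rest on them are given with and without them.

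Ptchd1 lies on the minus strand of chromosome X (GRCm38, chrX:155573455-155623814) and has 3 annotated transcripts. The main coding transcript has 3 exons, with 2664 coding bases of 2768. The antisense gene Gm15156 (chrX:155622789-155623361, plus strand) covers 210 exonic bases of Ptchd1, 6.99% of its 3005 exonic bases, and no gene on the same strand overlaps its exons. The libraries were made with a strand-specific kit, but the strand setting of the counting is not given in the sources used here, so reads from those 210 bases may not be assigned to the right gene. Another plus-strand gene, Gm15155, begins 927 bases from the start of Ptchd1 and held 13 counts over all 72 libraries.

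The sequence around the start of the main transcript is shown because motifs were searched in it, and it covers only part of the overlap with Gm15156. It was taken from RefSeq (GRCm38.p6, chrX:155623278-155623577, minus strand, 250 bases before the start and 50 after it), with CG dinucleotides in capitals:
Ptchd1 promoter: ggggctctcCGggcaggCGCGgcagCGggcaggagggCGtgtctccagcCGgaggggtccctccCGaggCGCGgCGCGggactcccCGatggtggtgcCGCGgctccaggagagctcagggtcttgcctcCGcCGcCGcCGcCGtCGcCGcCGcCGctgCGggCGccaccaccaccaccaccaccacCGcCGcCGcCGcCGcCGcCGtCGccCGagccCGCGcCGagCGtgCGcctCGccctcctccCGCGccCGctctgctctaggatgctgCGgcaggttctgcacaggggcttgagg

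Its 300 bases were 79% G and C and held 44 CG dinucleotides. Over the 32851 mouse promoters of the same length the medians were 52.7% and 7, and 98.6% of them had a lower G and C content. Searched on both strands, the window held no AP-1 motif (TGAGTCA or TGACTCA, in 5.2% of all promoters), CRE (TGACGTCA, 1.79%), CRE core (TGACG, 20.8%, part of the CRE), TEAD motif (GGAATG, 14.7%), NR4A motif (AAAGGTCA, 1.51%), EGR motif (GCGTGGGCG, 0.612%) or NFAT core (GGAAAA, 23.4%). These letters are absent from this window, which says nothing of the factors.

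In 1057, Ptchd1 was counted in all 12 libraries, 880 reads in total. The mock libraries held 38, 32 and 55 reads, or 1.16, 0.991 and 1.68 CPM. After GRP the counts were 130, 157 and 150, or 4.45, 4.62 and 4.80 CPM. All 3 GRP libraries were therefore above all 3 mock libraries, and they lay close together. In such bulk libraries more cells with Ptchd1 RNA and more of it per cell cannot be told apart. The mean was 1.28 ± 0.359 CPM in mock and 4.62 ± 0.174 CPM after GRP (SD, n = 3), a fitted log2 fold change of 1.88 (SE 0.18). For reference, 4.96% of the 14195 genes tested in 1057 were called higher after GRP, a call needing both an adjusted p (Benjamini-Hochberg) below 0.05 and a log2 fold change beyond 1 in size, and 25.1% had 3 GRP libraries above all 3 mock libraries.

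RC alone left 1057 near mock, with 43, 36 and 42 reads (1.31, 1.10 and 1.56 CPM). The ratio of summed counts between RC and mock was 1.02, with an exact 95% counting interval of 0.789 to 1.32. With GRP+RC the counts were 57, 65 and 75, or 1.66, 2.06 and 2.57 CPM. These 3 libraries lay between the others, above every RC library and below every GRP library, and the highest mock library (1.68 CPM) reached just above the lowest of them. The GRP+RC mean was 2.10 ± 0.453 CPM (SD, n = 3), with a log2 fold change of -1.18 (SE 0.17) against GRP, where 16.1% of genes had GRP+RC libraries all below GRP.

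In 1064, where Grpr was highest, Ptchd1 was near the floor without GRP. The mock libraries held 0, 1 and 5 reads and the GRP libraries 30, 79 and 31, or 1.28, 4.04 and 1.23 CPM. Every GRP library was above every mock library, but replicate 2 held more than 3 times the CPM of each of the others. The log2 fold change was 4.67 (SE 1.04), and 6.26 without mock replicate 3. In 1064, 1.52% of 13794 tested genes were called higher after GRP, and 10.8% had GRP libraries all above mock. The ratio of summed counts, 140 against 6, was 24.7 (counting interval 11.1 to 68.4).

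RC alone gave 3, 19 and 2 reads in 1064 (0.117, 0.690 and 0.0781 CPM), replicate 2 again standing above the others. Against mock the log2 fold change was 1.82 (SE 1.15), 0.27 without RC replicate 2 and 3.41 without mock replicate 3, so its size rested on single libraries. GRP+RC gave 6, 24 and 12 reads, or 0.218, 0.888 and 0.477 CPM. All 3 were below every GRP library, and their range overlapped that of RC, where 0.913% of genes had GRP+RC libraries all above RC. They were also above every mock library, but the share of genes with GRP+RC libraries all above mock was not counted. The log2 fold change between GRP+RC and GRP was -2.05 (SE 0.83), and -1.25 without GRP replicate 2, and 6.61% of genes had GRP+RC libraries all below GRP.

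In 1014-Grpr no Ptchd1 read was counted in the 3 mock libraries. The GRP libraries held 26, 73 and 72 reads, or 1.03, 2.43 and 1.63 CPM. Set against a floor of 3 counts over the mock group, Ptchd1 was at least 48.7-fold higher after GRP. In this line 3.16% of 13730 tested genes were called higher after GRP, and 20.6% had GRP libraries all above mock. The libraries with RC alone held 1, 0 and 2 reads, and those with GRP+RC held 3, 2 and 3. All GRP+RC libraries were at or under the floor and below every GRP library. GRP+RC replicate 2 and RC replicate 3 both held 2 reads, so GRP+RC lay above every RC library only after scaling for depth (0.0821 against 0.0721 CPM). The log2 fold change between GRP+RC and GRP was -3.86 (SE 0.50), and 15.9% of genes had GRP+RC libraries all below GRP.

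**Figure D1:**
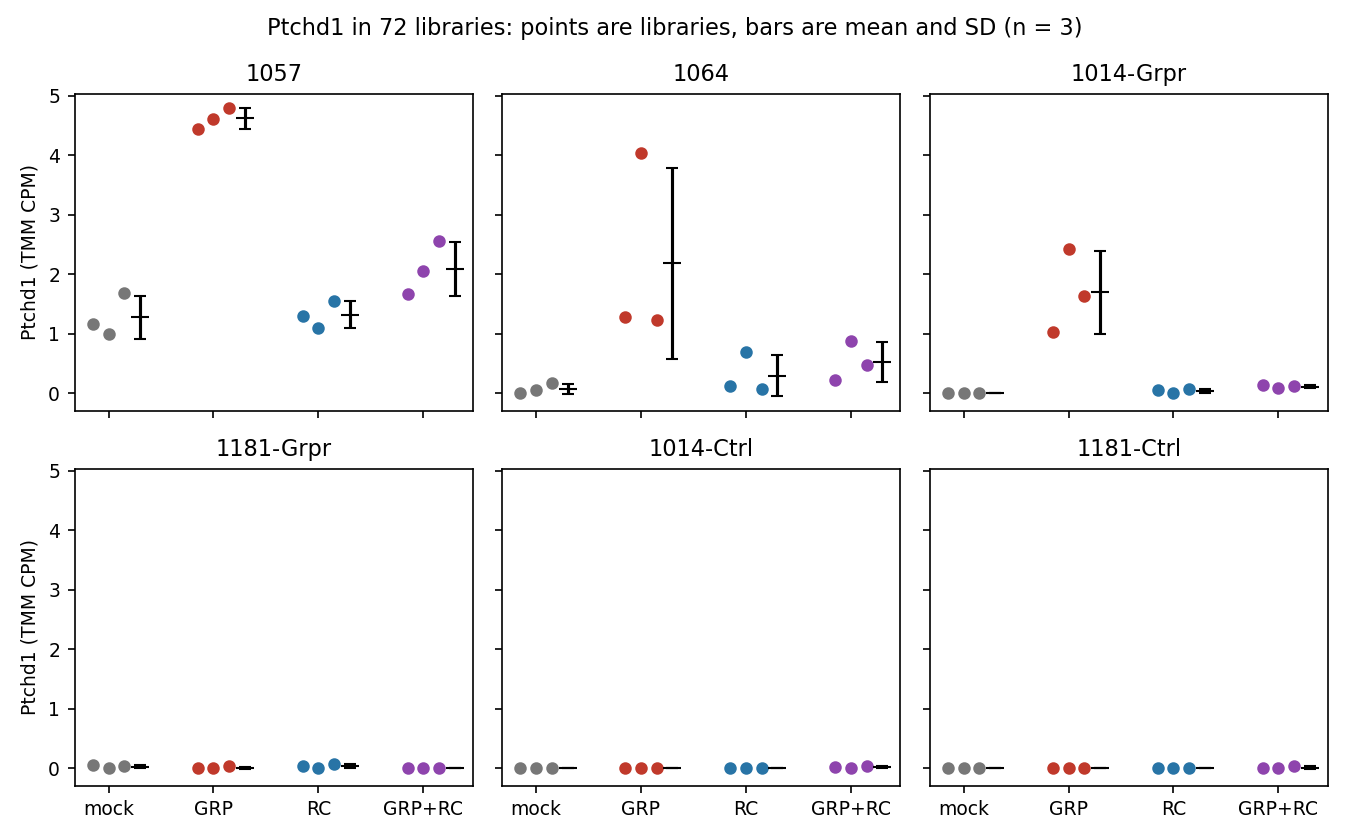
Ptchd1 in TMM CPM (y axis) for the 4 treatments (x axis) in each of the 6 lines. Points are libraries and the bars beside them are the mean and SD of 3 libraries. GRP libraries of 1057 sit between 4.45 and 4.80 CPM, those of 1064 between 1.23 and 4.04, those of 1014-Grpr between 1.03 and 2.43, and the lower row lies at or near 0.

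The 3 remaining lines gave almost no Ptchd1 reads. In 1181-Grpr, with Grpr present, 7 reads were counted over 12 libraries and 329147544 library reads, and no library held more than 2. The mock libraries there held 2, 0 and 1 reads, the GRP libraries 0, 0 and 1, the RC libraries 1, 0 and 2, and GRP+RC none. The GRP+RC total is 0 with and without the mismatched library. By edgeR 0 of 14506 genes tested in 1181-Grpr were called higher or lower with GRP against mock. There 45 genes had an unadjusted p under 0.05. In 1014-Ctrl 2 reads were counted, both in GRP+RC libraries, and in 1181-Ctrl 1 read, in a GRP+RC library. All 6 mock and all 6 GRP libraries of these control lines had 0 counts, so a GRP effect was not detectable at this depth and no fold is given. Ptchd1 did not pass the filter on low counts in any of these 3 lines.

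**Figure D2:**
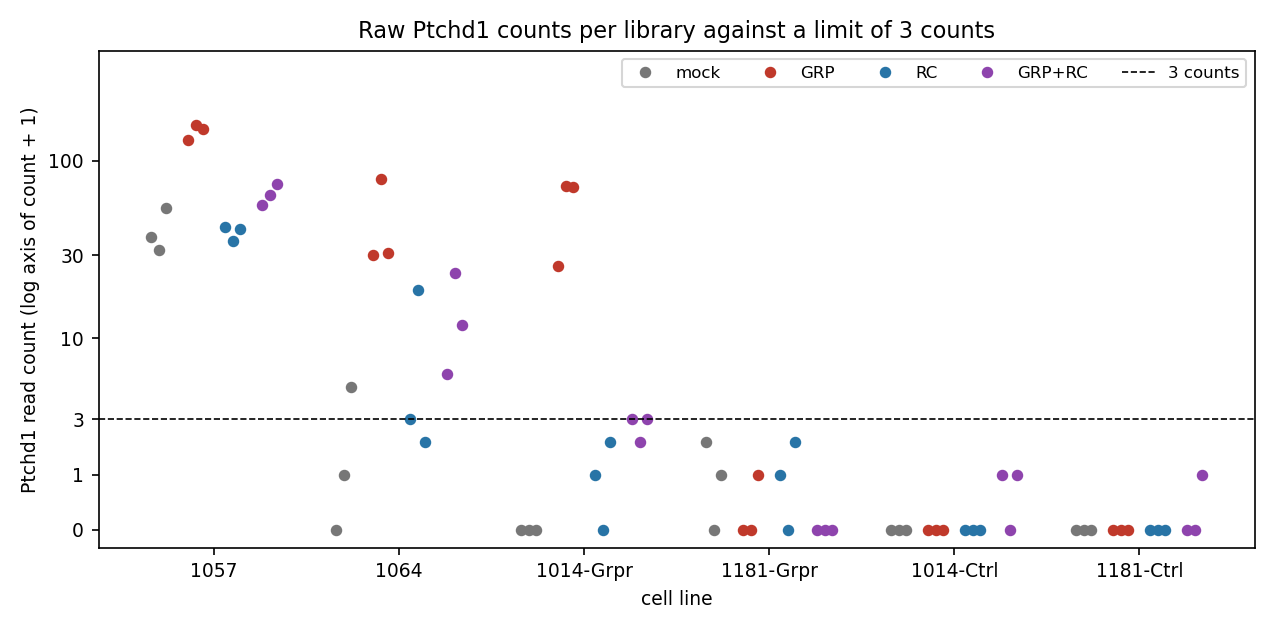
Raw Ptchd1 counts (y axis, log axis of count + 1) of the 72 libraries, by line (x axis) and treatment (colour). The dashed line marks 3 counts; all 36 libraries of 1181-Grpr, 1014-Ctrl and 1181-Ctrl are at or below it, as are 9 of 12 in 1014-Grpr, 4 of 12 in 1064 and none in 1057.

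Ordered by mean CPM, 1057 with GRP (4.62 ± 0.174, n = 3) came first of the 24 groups and its range did not reach that of the next. 1064 with GRP (2.19 ± 1.61), 1057 with GRP+RC (2.10 ± 0.453), 1014-Grpr with GRP (1.70 ± 0.70), 1057 with RC (1.32 ± 0.23) and 1057 mock followed, and each of these overlapped the next. After them came a gap, then 1064 with GRP+RC at 0.528 ± 0.338 CPM and 1064 with RC at 0.295 ± 0.343 CPM. From there down each group's range overlapped the next. The mock level of 1057 was above that of every other line, none of whose mock libraries exceeded 0.172 CPM.

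On the authors' TPM values, which are scaled by transcript length and depth, Ptchd1 went from 1.29 ± 0.382 in 1057 mock to 4.49 ± 0.136 with GRP (SD, n = 3), from rank 12327 of 22477 genes with a TPM above 0 to rank 10187 of 22825. In 1064 with GRP it reached 2.05 ± 1.48 TPM, rank 11491 of 21339, from rank 18251 of 21295 in mock. In 1014-Grpr with GRP it reached 1.91 ± 0.774 TPM, rank 11906 of 23450. Ptchd1 thus stayed a gene of low to middling level even in its highest group.

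Grpr levels were set beside these values in the 18 libraries given GRP alone. The 1057 libraries had 196 to 209 CPM of Grpr and the highest Ptchd1, while 1064 (469 to 516 CPM) and 1014-Grpr (398 to 632 CPM) had more Grpr and less Ptchd1. The GRP libraries of 1181-Grpr had 19.0 to 80.7 CPM of Grpr and at most 0.0328 CPM of Ptchd1. Grpr differed with treatment as well, at 273 to 276 CPM in 1057 mock, 780 to 1273 CPM in 1064 mock and 109 to 141 CPM in 1014-Grpr mock. The mock libraries of 1181-Grpr held 8.46 to 17.9 CPM. GRP libraries thus held less Grpr than mock in 1057 and 1064. They held more in 1014-Grpr and 1181-Grpr, where it comes from the CMV promoter. In 1014-Grpr 20.6% of tested genes had GRP libraries all above mock, and the shares for the other lines and directions of Grpr were not counted. In 1057 Grpr was also below every mock library with RC alone (208 to 212 CPM) and with GRP+RC (188 to 207 CPM). In 1064 and 1014-Grpr the range with RC alone overlapped that of mock. The part of the Grpr level in the Ptchd1 differences was not tested.

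**Figure D3:**
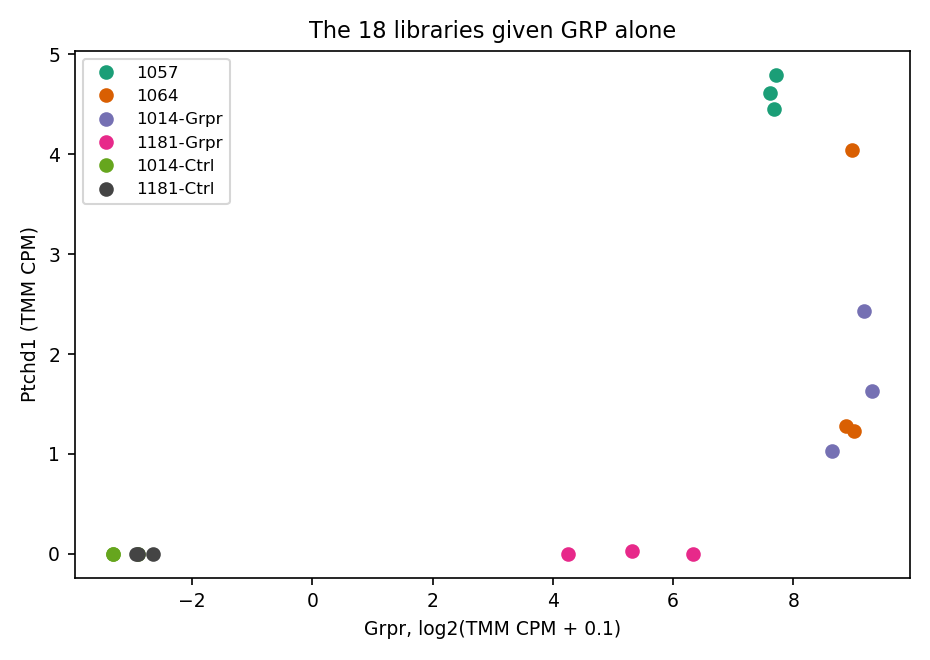
Ptchd1 (y axis, TMM CPM) against Grpr (x axis, log2 of TMM CPM + 0.1) in the 18 libraries given GRP alone, coloured by line. The 1181-Grpr libraries lie at 0 or close to it with 19.0 to 80.7 CPM of Grpr, and the 9 libraries of 1057, 1064 and 1014-Grpr lie above 1 CPM of Ptchd1.

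Whether GRP still raised Ptchd1 when RC was present was tested as GRP+RC against RC, with edgeR's quasi-likelihood test in each line. In 1057 the log2 fold change was 0.67 (SE 0.21, 95% interval 0.24 to 1.11, adjusted p = 0.0259 over 14195 genes). Ptchd1 passed the adjusted p but not the fold threshold of 1, so it was not called. In 1057 10.7% of genes passed the adjusted p alone in this direction, 0.859% were called higher and 0.0564% lower, and 15.1% had 3 GRP+RC libraries above all 3 RC libraries. The adjusted p was 0.0662 without RC replicate 1, 0.125 without RC replicate 2 and 0.121 without GRP+RC replicate 3, and it was 0.0527 on the authors' TPM and 1 in a single fit of all 72 libraries.

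In 1064 the same difference was 0.80 (SE 0.90, interval -1.20 to 2.80, adjusted p = 1), and only 1 of 3 GRP+RC libraries was above every RC library. In 1014-Grpr it was 1.39 (SE 0.93, interval -0.69 to 3.46, adjusted p = 0.876), resting on 8 reads against 3, a ratio of 2.80 with a counting interval of 0.671 to 16.4. Ptchd1 passed the filter on low counts in this line only through the GRP libraries, which served the choice of the gene. In CPM all 3 GRP+RC libraries there were above all 3 RC libraries, which held for 6.64% of tested genes, but in reads GRP+RC replicate 2 and RC replicate 3 were equal, and all 6 were at or under 3 counts. By edgeR no gene was called in this contrast in 1064 or 1014-Grpr, with 24 and 952 genes at an unadjusted p under 0.05. By DESeq2 0 genes were called in 1064 and 11 in 1014-Grpr. The replicate numbers pair the libraries in both lines, and with the replicate as a block the calls were 0 and 32, with Ptchd1 at an adjusted p of 1 and 0.412.

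Taken over the 4 lines that express Grpr, the mean difference of log2(CPM + 0.1) between GRP+RC and RC was 0.43 (exact two-sided permutation within lines, p = 0.0858 over 160000 arrangements). Where only same-numbered libraries were exchanged in 1064 and 1014-Grpr, the lines taken as paired, the permutation p was 0.0292 over 25600 arrangements. That permutation left 1181-Grpr unpaired, though all 12 libraries of that line correlated best with a library of their own number. GRP+RC was above RC in 3 of 3 same-numbered pairs in each of 1057, 1064 and 1014-Grpr and in 0 of 3 in 1181-Grpr. The difference was positive in 1057 (0.62), 1064 (0.86) and 1014-Grpr (0.63) and negative in 1181-Grpr (-0.39). In both 1014-Grpr and 1181-Grpr every RC and GRP+RC library was at or under 3 counts. With libraries exchanged freely, p was 0.111 to 0.222 when a replicate number was left out. Without the mismatched library of 1181-Grpr p was 0.091, and with a pseudocount of 1 CPM it was 0.0446, the mean difference then being 0.18.

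The size of this difference was compared between lines in a single fit of all 72 libraries. The effect in 1057 minus that in 1064 was -0.14 (95% interval -1.70 to 1.43), in 1057 minus 1014-Grpr -0.73 (-3.10 to 1.63) and in 1064 minus 1014-Grpr -0.60 (-3.04 to 1.84), each with an adjusted p of 1. The intervals cover differences of more than 2-fold in either direction, so the data do not show that the lines act alike. Between 1014-Grpr and 1014-Ctrl the difference was -1.18 (SE 1.09, adjusted p = 1), but it sets 8 and 3 reads against 2 and 0 and depends on the prior count of the fit. It was -0.41 without RC replicate 3 of 1014-Grpr and -1.75 without RC replicate 2. In that fit, too, Ptchd1 passed the filter only through the GRP libraries of 1014-Grpr. For 1181-Grpr and 1181-Ctrl Ptchd1 did not pass the filter.

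**Figure D4:**
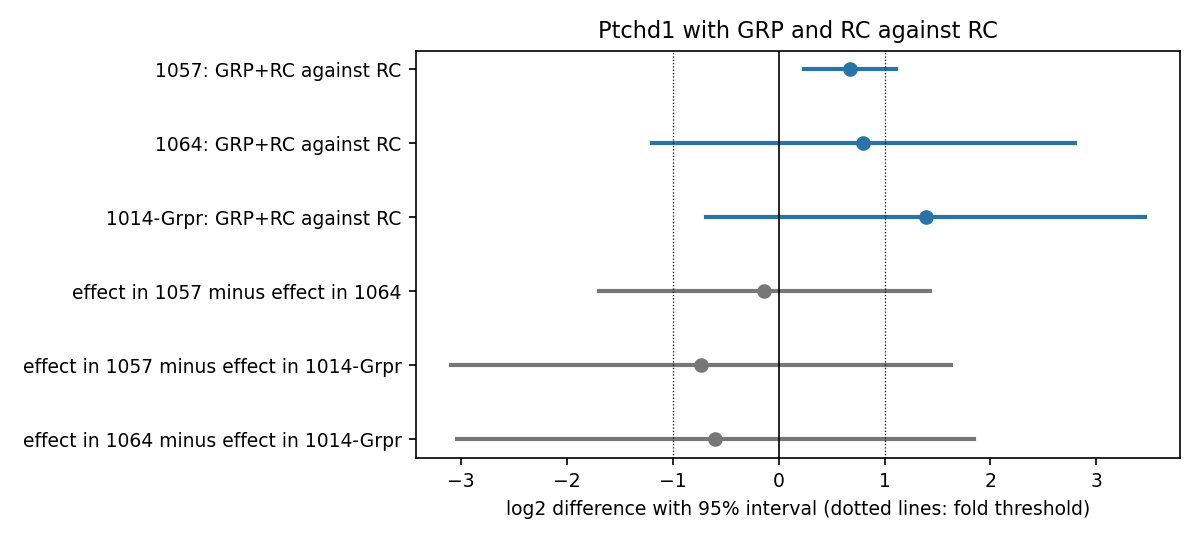
Fitted log2 difference of Ptchd1 between GRP+RC and RC (x axis, with 95% intervals) in 1057, 1064 and 1014-Grpr (blue) and the differences of that effect between lines (grey). Dotted lines mark the fold threshold of 1, and the interval of 1057 (0.24 to 1.11) is the only one that does not reach 0.

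As a description, the rise from RC to GRP+RC was 23.2% of the rise from mock to GRP in 1057, on the CPM scale (0.774 of 3.34 CPM). It was 11.02% in 1064 (0.232 of 2.11 CPM) and 4.32% in 1014-Grpr (0.0733 of 1.70 CPM). The share of 1064 rested on single libraries, being 19.7% without GRP replicate 2, 6.80%, 20.4% and 5.87% without RC replicates 1, 2 and 3, and 18.4% and 2.48% without GRP+RC replicates 1 and 2. Set against mock instead of RC, the GRP+RC level stood at 24.5%, 21.45% and 6.69% of the GRP rise, and in 1064 at 38.3% without GRP replicate 2 and 12.9% without GRP+RC replicate 2.

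Gm15156 held 43 reads over the 12 libraries of 1057, 4 in 1064, 22 in 1014-Grpr and none in the other lines, at most 12 in a library. By treatment, 1057 had 9 in mock, 14 with GRP, 9 with RC and 11 with GRP+RC, and all 22 of 1014-Grpr were in GRP libraries. Because the exons overlap, these reads and those of Ptchd1 may not be separable, and whether Gm15156 is transcribed on its own was not tested.

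Of 11 genes that overlap Ptchd1 or flank it, 4 were tested in 1057 and 3 each in 1064 and 1014-Grpr, and none was called with GRP against mock (background 4.96%, 1.52% and 3.16% higher), a share near the background for so few genes. Acot9, an acyl-CoA thioesterase on the opposite strand, 275801 bases away, had log2 fold changes of 0.80 (SE 0.04) in 1057, 0.74 (SE 0.20) in 1064 and 0.88 (SE 0.10) in 1014-Grpr. Those passed the adjusted p in 1057 (2.56e-11) and 1014-Grpr (6.23e-05) but not in 1064 (0.0521), and all were under the fold threshold. Prdx4, an endoplasmic reticulum peroxiredoxin nearer to Ptchd1 on its own strand, was at -0.05, 0.02 and -0.03.

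The other 9 listed genes of the Patched and sterol-sensing family include the Hedgehog receptor Ptch1, the Dispatched proteins that release Hedgehog ligand, and the sterol-handling proteins Npc1 and Scap. With GRP against mock, 1 of 6 tested in 1057 was called higher and none lower (background 4.96% and 1.5%). All 6 passed the adjusted p there, 2 higher (Disp2 and Disp3) and 4 lower (Disp1, Scap, Ptch1 and Npc1). The share of all genes that did so was not counted, but 8114 of 14195 had an unadjusted p under 0.05. In 1064 0 of 6 were called (background 1.52% higher and 0.797% lower), as were 0 of 4 in 1014-Grpr (3.16% and 0.852%). Disp3 was the gene called in 1057 (log2 fold change 1.37, SE 0.39, adjusted p = 0.00634), from 20 to 50 reads in all. Their median log2 fold change was -0.15 in 1057, -0.02 in 1064 and -0.11 in 1014-Grpr, beside -0.01, -0.02 and -0.02 over all tested genes. None was called with GRP+RC against RC in these lines, where 0.859% of genes in 1057 were called higher. In 1057 Ptch1 and Npc1 passed the adjusted p alone in that contrast, as lower, and the share of all genes that did so was not counted.

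Ptch1 had -0.27 (SE 0.05, adjusted p = 5.37e-05) in 1057, -0.73 (SE 0.18, adjusted p = 0.0377) in 1064 and -0.08 in 1014-Grpr. All 3 values were under the fold threshold. Per length, Ptch1 in 1057 was at 14.1 ± 0.291 TPM in mock and 11.1 ± 0.818 TPM with GRP (SD, n = 3). Ptchd1, at 4.49 TPM with GRP, was thus below Ptch1. The other PTCHD genes of the list, Ptchd3 and Ptchd4, had no counts in the mock and GRP libraries of 1057 and 1014-Grpr.

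Of 14 Hedgehog pathway genes, 8 were tested in 1057, 8 in 1064 and 9 in 1014-Grpr, and none was called with GRP against mock (background 4.96%, 1.52% and 3.16% higher) or with GRP+RC against RC, a share near the background for so few genes. In 1057 5 of the 8 passed the adjusted p with GRP, 1 higher (Boc, a co-receptor for Hedgehog ligands, 0.17, adjusted p = 0.0035) and 4 lower. Small changes were common there, as 8114 of all 14195 tested genes had an unadjusted p under 0.05 with GRP against mock. The share of all genes that passed the adjusted p was not counted, so 5 of the 8 has no background at its own threshold. The median log2 fold change of the list with GRP was -0.26, -0.12 and 0.04. Sufu, an inhibitor of the Gli factors, had -0.72 (SE 0.03, adjusted p = 3.81e-12) in 1057. Smo, the signal transducer that Patched restrains, had -0.39 (SE 0.04, adjusted p = 7.39e-08) there and -0.25 (SE 0.05, adjusted p = 0.00379) in 1014-Grpr. The other lower genes of 1057 were Kif7 (-0.84) and Gas1 (-0.90). The ligand gene Dhh had 0.85 (SE 0.10, adjusted p = 7.83e-05) in 1014-Grpr.

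Of 9 genes for known or related binding partners (Dlg1 to Dlg4, Snx27 and the retromer subunits), 9, 9 and 8 were tested in these lines and none was called in either contrast, near the background of 4.96%, 1.52% and 3.16% higher with GRP for so few genes. Dlg4, the gene of PSD95, had 0.59 (SE 0.13, adjusted p = 0.00486) with GRP in 1014-Grpr. Snx27 was at 48.8 ± 1.40 TPM in 1057 mock and 46.2 ± 1.54 TPM with GRP. The retromer subunit gene Vps26b had -0.29 (SE 0.03, adjusted p = 4.89e-07) in 1057 and -0.42 (SE 0.09, adjusted p = 0.0294) in 1064. Vps26a was also lower in 1057 (-0.12, adjusted p = 0.00965). Another subunit gene, Vps29, went the other way, at 0.16 (SE 0.04, adjusted p = 0.00124) in 1057 and 0.14 (SE 0.05, adjusted p = 0.0417) in 1014-Grpr, and Dlg1 had 0.42 (SE 0.11, adjusted p = 0.0477) in 1064.

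Because Ptchd1 is best known from neurons, the summed level of 5 neuronal markers (Rbfox3, Snap25, Syt1, Tubb3 and Dlg4) was set beside it. In 1057 the sum was lower with GRP, 73.9 to 79.0 CPM against 90.2 to 96.5 CPM in mock, and RC alone gave 76.9 to 78.4 CPM. Most of this sum was Tubb3, a neuronal tubulin, at 86.1 ± 3.41 CPM in mock and 69.9 ± 2.48 CPM with GRP (SD, n = 3). Rbfox3, a neuronal splicing factor, went the other way in 1057 and was called higher with GRP (log2 fold change 1.51, SE 0.61, adjusted p = 0.0471), from 9 to 25 reads in all. In 1064 the sums overlapped, at 182 to 227 CPM with GRP and 201 to 223 CPM in mock, but single markers moved in opposite directions. Tubb3 was lower with GRP in 1064, at 45.94 to 80.51 CPM against 87.52 to 114.8 CPM in mock. Dlg4 averaged 149.3 CPM with GRP and 105.3 CPM in mock, and its ranges overlapped. No tested marker passed the adjusted p in 1064, and the share of genes with GRP libraries all below mock was not counted. In 1014-Grpr the sums were 216 to 239 CPM with GRP against 158 to 202 CPM in mock. There Dlg4 averaged 78.2 CPM with GRP and 52.2 CPM in mock, and Tubb3 147 and 132 CPM. In 1014-Grpr 20.6% of genes had GRP libraries all above mock. In each of these 3 lines 2 of the 5 markers had a median above 1 CPM. Snap25 had a median of 0 in 1057 and 1064, Syt1 in 1064 and Rbfox3 in 1014-Grpr. The part of these genes in the Ptchd1 difference was not tested.

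The 8 genes whose pattern was most like that of Ptchd1 were found by Pearson correlation of log2(CPM + 0.5), with each line's mean subtracted, over 72 libraries and 16595 other genes. Of these, 7 are reported: Bdnf (r = 0.93), a neurotrophin, Tlr4 (0.90), the lipopolysaccharide receptor, Slc30a4 (0.90), a zinc transporter, Atp2b1 (0.89), a plasma membrane calcium pump, Nxph3 (0.88), a ligand of neurexins, Serpinb2 (0.87), a plasminogen activator inhibitor, and Agpat4 (0.86), an acyltransferase. The libraries share lines and treatments, and 49 of the 72 hold no more than 3 Ptchd1 reads, so r is a description. Without subtracting line means 1 of the 7 stayed among the first 8, and by Spearman's rho 4 did.

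These genes spanned a wide range of levels. Bdnf was at 0.133 ± 0.0639 CPM in 1057 mock and 1.51 ± 0.176 CPM with GRP, and at 3.74 ± 0.877 and 31.6 ± 14.7 CPM in 1064 (SD, n = 3). Tlr4 was at 70.1 ± 0.225 and 109 ± 4.15 CPM in 1057. Since GRP libraries entered the choice, the changes are a description. The fitted log2 fold changes with GRP over the 7 genes had a median of 1.75 in 1057, 1.46 in 1064 and 1.18 in 1014-Grpr, and with GRP+RC against RC of 0.78, 0.17 and 0.16. In 1181-Grpr 5 of the 7 were tested, with a median of 0.15 with GRP.

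**Figure D5:**
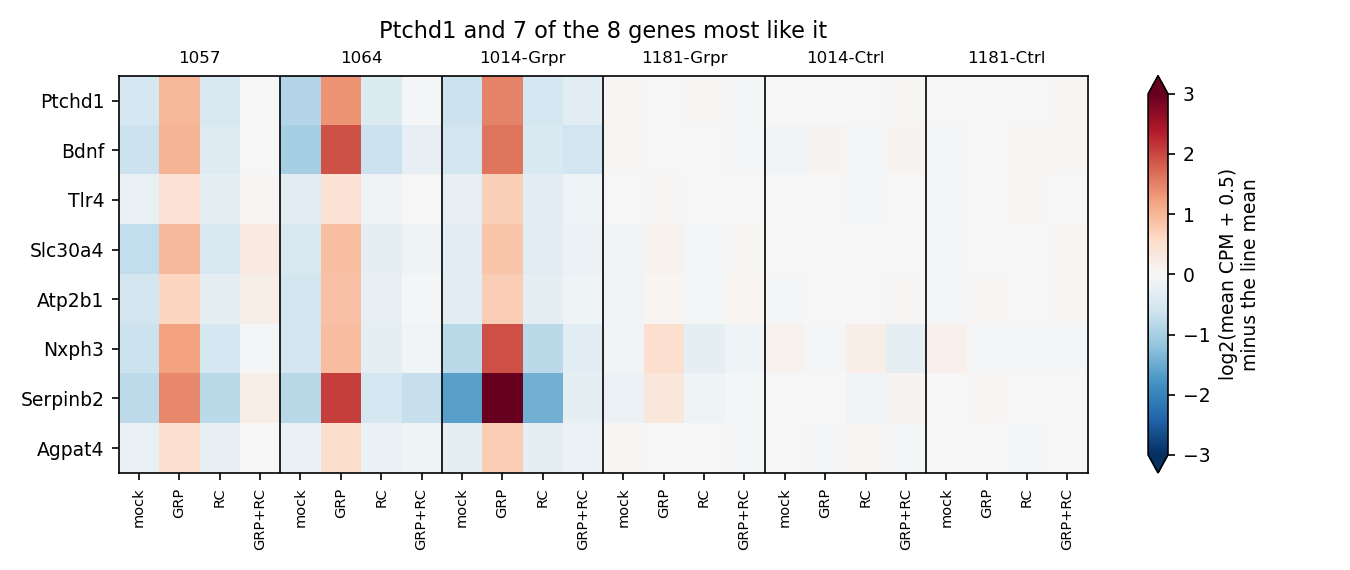
Mean level of Ptchd1 and 7 of the 8 genes most like it (rows) in the 24 groups (columns), as log2(mean CPM + 0.5) minus the mean of the line's 4 groups (colour). In 1057, 1064 and 1014-Grpr the GRP column is the highest of each line for all 8 genes shown, and in the other 3 lines most cells are near 0.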

How the data were processed

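RNA was extracted with a miRNeasy kit and poly(A)-selected, strand-specific libraries were read as paired ends. The authors aligned reads with STAR to GRCm38 (GENCODE M13) and deposited raw counts per gene, not normalized, which were used here. The authors also deposited TPM values, used as an alternative. The 12 deposited TPM columns of 1057 use another number format, with commas for decimal points, and were converted. Positions came from GENCODE M21.

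Counts were filtered (filterByExpr), scaled by TMM and tested with edgeR 4.0.16 (quasi-likelihood, R 4.3.3) in a separate fit per line, adjusted by Benjamini-Hochberg over all tested genes, and checked on simulated data. Each SE was obtained from the fold change and its F statistic. Alternatives were DESeq2 1.42.0, no filter, a replicate block, a single fit of all 72 libraries, limma 3.58.1 on log2(TPM + 0.1) and leaving out each library. Ratios of summed counts, the differences between lines, the permutation within same-numbered pairs and the leaving out of libraries from the share of the GRP rise were added after the data were seen. Depth ran from 19512882 to 46862053 reads. Intervals of ratios and the floor of 3 counts cover counting error only, as reads carry no molecular identifiers. No replicate was a copy of another (smallest chi-square per degree of freedom 2.556).

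Deviations of same-numbered libraries correlated in GRP+RC and RC at 0.73 to 0.82 in 1064 and 0.38 to 0.48 in 1014-Grpr, but at -0.01 to 0.06 in 1057. The replicate numbers were therefore taken to pair the libraries in 1064 and 1014-Grpr but not in 1057. In 1181-Grpr these correlations were 0.025 to 0.299, the lowest with the mismatched library, and the line was left unpaired. Between the mock, GRP and RC libraries of 1181-Grpr, which do not include the mismatched library, same-numbered correlations were 0.45 to 0.74. All 12 libraries of the line correlated best with a library of their own number, so leaving it unpaired may ignore a pairing. Named genes were Ptchd1, Grpr, Grp, Ddx3y, Xist, tested members of the lists, flanking genes and the 8 genes most like Ptchd1. A few of these genes are not reported here and were left out of the lists' counts. The gene and the lists were chosen with earlier results of these data known.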

Additional observations from a re-analysis of the deposited data

How the results depend on the processing

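The tested difference of Ptchd1 between GRP+RC and RC in 1057 (0.67) kept its direction in all settings and its adjusted p under 0.05 with DESeq2, without the filter and with the replicate block. It lost it on the authors' TPM (0.62) and in a single fit of all 72 libraries (0.66), and leaving out single libraries gave 0.51 to 0.83. The permutation over 4 lines moved from p = 0.0858 to 0.0446 with a pseudocount of 1 CPM (0.18) and to 0.0292 with the replicate block in 1064 and 1014-Grpr (0.43), and leaving out each replicate number gave mean differences of 0.39 to 0.50 with p = 0.111 to 0.222. In 1064 and 1014-Grpr leaving out single libraries gave 0.20 to 2.36 and 0.82 to 2.16, and between 1014-Grpr and 1014-Ctrl -1.75 to -0.41.

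Among the descriptive values, TPM gave smaller differences in 1064 for GRP (3.55) and GRP+RC (1.83) against mock and in 1014-Grpr for GRP+RC against GRP (-3.02). Leaving out libraries of 1064 gave 3.88 to 6.26 for GRP, 0.27 to 3.41 for RC and 2.03 to 4.21 for GRP+RC against mock. RC against mock in 1057 (0.03) ran from -0.12 to 0.28 and so changed sign. The replicate block changed no other call on Ptchd1. In 1057 the block gave 0.67 for GRP+RC against RC and 131 genes called beside 130, and there only 5 of 12 libraries correlated best with their own number. Genes called in that contrast fell to 8 in the single fit of 72 libraries in 1057. In 1014-Grpr they went from 0 to 16 without the filter, 32 with the replicate block and 11 with DESeq2. The causes were not tested.

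Depth limits the lines at or near the floor. A permutation of GRP against mock in the control lines gave no value, as all 12 libraries had 0 counts, and no fit against the mock libraries of 1014-Grpr, also at 0, is given.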
